A study of Caenorhabditis elegans with 2 samples.

Results

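The genes described here are small nucleolar RNA (snoRNA) genes that stand on their own in the genome of the nematode Caenorhabditis elegans. They were the genes of biotype snoRNA whose span was not wholly inside the span of any protein-coding gene in the Ensembl annotation of build WBcel235. The rule gave 130 members of 346 snoRNA genes, the other 216 being nested in protein-coding genes, out of 31563 genes once piRNA genes were left out. The rule reads the annotation alone. Members were 62 to 344 bases long, with a median of 135, and 6 overlapped a protein-coding gene in part. The annotation classes each of them only as a small nucleolar RNA, so no RNA target is given for any member.

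The binding data came from 1 group of whole, mixed-sex fourth-stage (L4) larvae of strain OP212, genotype unc-119(ed3) III; ddEx58. All larvae carried a transgene for the homeobox protein CEH-82 (gene F45C12.2) that carried GFP and FLAG at its C-terminus. Chromatin was fragmented by sonication, and CEH-82 was the target of the immunoprecipitation in 2 biological replicates (ChIP-seq). The form of the transgene was not settled, since its name marks an extrachromosomal array and the labels also speak of an insertion. In whole larvae, binding in a few cells and weak binding in many cells cannot be told apart. No untagged or input sample was analysed here, so the values describe recovered chromatin and do not show that any gene was bound by CEH-82.

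snoRNAs guide chemical modification of ribosomal RNA and other RNAs in the nucleolus. Box C/D snoRNAs carry short C and D words near their ends and guide ribose methylation, while H/ACA snoRNAs end shortly after an ACA word and guide the conversion of uridine to pseudouridine. A snoRNA inside an intron of a protein-coding gene is usually cut from the host's transcript. One outside protein-coding genes needs a promoter of its own or a noncoding host, and RNA polymerase II and RNA polymerase III are both known to make snoRNAs. Genes read by RNA polymerase III often carry an internal promoter of the tRNA type, made of a box A and a box B.

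The sequences around the start of 8 of the 9 members with the strongest pooled summits are printed here. The upstream words described below were searched in that stretch. The strongest pooled summits of T26A8.6, C34E11.20, W01H2.11 and W06H8.17 lay outside the printed runs. Each run covers the 100 bases upstream of the annotated start and the first 30 bases of the gene, on the gene's strand, from the RefSeq assembly of WBcel235. Their positions are IV:8428710-8428839 (minus strand) for T26A8.6, X:11792015-11792144 (plus) for C34E11.20, II:15025864-15025993 (minus) for Y53F4B.47, X:4222436-4222565 (minus) for W01H2.11, V:6227521-6227650 (minus) for W06H8.17, IV:4880821-4880950 (minus) for T08B6.64, III:502704-502833 (plus) for F30H5.4 and II:5701562-5701691 (plus) for C18A3.12. Capitals mark TGTCGG, GTTCNANNC or TATAAA upstream of the start and the box C word TGATGA in the first 20 bases of the gene.
T26A8.6: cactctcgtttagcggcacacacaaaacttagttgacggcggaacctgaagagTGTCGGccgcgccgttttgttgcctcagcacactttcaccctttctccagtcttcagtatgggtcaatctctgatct
C34E11.20: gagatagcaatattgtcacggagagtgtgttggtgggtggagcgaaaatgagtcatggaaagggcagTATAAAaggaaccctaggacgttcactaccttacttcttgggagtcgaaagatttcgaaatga
Y53F4B.47: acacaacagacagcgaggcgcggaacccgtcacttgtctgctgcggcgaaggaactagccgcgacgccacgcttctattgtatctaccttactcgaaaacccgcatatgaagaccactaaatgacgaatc
W01H2.11: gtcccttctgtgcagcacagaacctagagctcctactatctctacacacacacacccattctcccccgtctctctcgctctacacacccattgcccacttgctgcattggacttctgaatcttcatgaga
W06H8.17: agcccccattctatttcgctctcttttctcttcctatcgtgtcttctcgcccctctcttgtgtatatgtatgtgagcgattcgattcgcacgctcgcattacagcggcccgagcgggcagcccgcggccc
T08B6.64: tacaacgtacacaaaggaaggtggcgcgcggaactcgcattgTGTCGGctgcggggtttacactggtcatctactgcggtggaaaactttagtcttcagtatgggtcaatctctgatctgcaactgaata
F30H5.4: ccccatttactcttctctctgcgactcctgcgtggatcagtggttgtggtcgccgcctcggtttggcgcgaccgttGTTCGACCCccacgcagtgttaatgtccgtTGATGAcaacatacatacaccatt
C18A3.12: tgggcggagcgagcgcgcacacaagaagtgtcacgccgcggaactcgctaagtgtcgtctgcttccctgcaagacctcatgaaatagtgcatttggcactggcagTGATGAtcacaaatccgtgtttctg

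A further 4 whole genes are printed because they hold GTTCNANNC, the core of box B of tRNA-type promoters, just before the start and a run of T, the stop signal of RNA polymerase III, just after the end. Of 11 members with both, 8 had a pooled summit and 7 had it within 100 bp of the start, while Y39G10AR.24, T10B9.11 and Y59E1B.14 had no summit in any list. The 4 printed are all among those with a close summit, and they and the words were chosen after sequences and binding values had been seen. Each run starts 100 bases upstream and ends 15 bases after the gene, at II:11960798-11960974 (plus) for W03C9.9, X:6867838-6868023 (plus) for C53B7.8, V:15190961-15191193 (minus) for Y75B12B.12 and IV:11549778-11549964 (minus) for F12F6.11. Capitals mark the same upstream words and box C, the box D word CTGA in the last 20 bases of the gene, and the run of T.
W03C9.9: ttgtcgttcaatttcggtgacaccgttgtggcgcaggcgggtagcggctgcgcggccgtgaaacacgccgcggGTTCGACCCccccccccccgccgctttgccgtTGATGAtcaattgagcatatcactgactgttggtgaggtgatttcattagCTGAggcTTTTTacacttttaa
C53B7.8: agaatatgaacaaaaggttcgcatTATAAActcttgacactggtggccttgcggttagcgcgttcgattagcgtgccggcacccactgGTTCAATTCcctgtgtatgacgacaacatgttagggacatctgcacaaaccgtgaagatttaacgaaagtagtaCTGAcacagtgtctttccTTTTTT
Y75B12B.12: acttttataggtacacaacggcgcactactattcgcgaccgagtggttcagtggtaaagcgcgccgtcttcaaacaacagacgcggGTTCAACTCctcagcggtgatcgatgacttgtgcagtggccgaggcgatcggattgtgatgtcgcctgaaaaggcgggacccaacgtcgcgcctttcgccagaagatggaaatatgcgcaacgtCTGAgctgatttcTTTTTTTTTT
F12F6.11: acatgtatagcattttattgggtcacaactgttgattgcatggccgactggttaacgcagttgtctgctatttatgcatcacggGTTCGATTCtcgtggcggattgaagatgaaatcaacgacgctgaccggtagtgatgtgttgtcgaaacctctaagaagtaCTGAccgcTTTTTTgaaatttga

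The deposited lists give for each peak a summit, its highest point, and a signal value, an enrichment score of the authors' peak caller on a scale that is not stated. Signal values were compared within a list only, and a rank of 1 is the strongest peak of a list. The lists for replicate 1, replicate 2 and the pooled reads of both held 4561, 8651 and 15658 peaks and include background by design, while the authors' thresholded list held 57. The number of reads is unknown. Peaks had median widths of 470 bp, 416 bp and 370 bp, so positions finer than that rest on the caller's summit alone.

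A summit of the pooled list lay within 500 bp of the start of 50 of the 130 members (38.5%, 95% exact interval 30.1 to 47.4). The same held for 107 of 216 nested snoRNA genes (49.5%, 42.7 to 56.4) and for 19.6% of all genes. The members' share was thus about that of tRNA genes, 41.5% (263 of 634), and its interval lay above the shares of protein-coding genes, 19.0%, and all genes. It overlapped the intervals of nested snoRNA genes and of snRNA genes, the RNAs of the splicing machinery, at 28.7% (21.1 to 37.3). No test between gene classes was made, and genes are not independent samples.

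Among the 1000 strongest pooled peaks the members' share differed from that of all genes by a larger factor. A summit of these lay near 17 members (13.1%, 7.81 to 20.1), against 41 nested snoRNA genes (19.0%, 14.0 to 24.9) and 2.64% of all genes. tRNA genes had 11.2%, snRNA genes 11.6%, miRNA genes 4.60% and protein-coding genes 2.21%. No member was within 500 bp of a thresholded summit, and 0 of 130 allows a share of up to 2.31%. Since only 0.203% of all genes had one, that count does not set the members apart. The thresholded summit closest to any member lay 737 bp upstream of T27A8.8 on the X chromosome, with a signal value of 26.4. The nearest other thresholded summit lay 8194 bp upstream of R166.10, with 31.9.

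**Figure D1:**
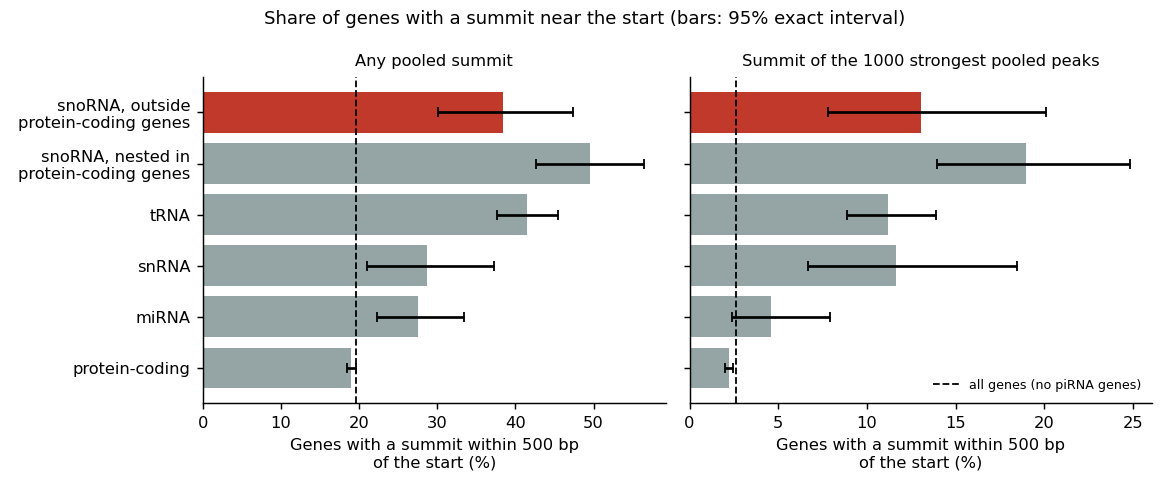
Share of genes (percent, horizontal axis) with a summit within 500 bp of the start, by gene class, for the whole pooled list (left) and its 1000 strongest peaks (right); error bars are 95% exact intervals and the dashed line is all genes without piRNA genes. Members reach 38.5% and 13.1%, against 49.5% and 19.0% of nested snoRNA genes and 19.6% and 2.64% of all genes.

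The pooled summits near members were mostly in the stronger part of the list they came from, and so were those near nested snoRNA, snRNA and tRNA genes. Their signal values ran from 2.06 to 14.2 with a median of 4.77, against a median of 2.95 over the whole pooled list, and 40 of the 50 were above that median. Taken the same way, as the strongest summit per gene, the median was 4.85 for nested snoRNA genes, 4.94 for snRNA genes, 4.06 for tRNA genes and 3.27 for all genes. The share above the list's median was 73.8% for nested snoRNA genes and 59.7% for all genes with a summit. None reached the range of the thresholded list, which starts at 16.4. Each of the 50 members had a strongest summit of its own, and 6 had more than 1 pooled summit in the window. A total of 72 members had no summit of any list within 500 bp, and 8 had a summit in a replicate list only.

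The replicates differed in how many members they marked. Replicate 1 had a summit near 20 members (15.4%, 9.66 to 22.8), against 34 nested snoRNA genes (15.7%) and 6.09% of all genes. Replicate 2 had one near 36 members (27.7%, 20.2 to 36.2), against 71 nested genes (32.9%) and 12.0% of all genes. Both replicates had one near 11 members (8.46%, 4.30 to 14.6), against 17 nested genes (7.87%) and 2.00% of all genes. At those 11 the replicates' strongest summits lay a median of 88 bp apart and 551 bp at most, and 6 pairs lay within 100 bp.

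Most of the strong pooled summits rested on replicate 2. All 17 members with a summit of the 1000 strongest had one in replicate 2 and 8 had one in replicate 1. Of those 17, 11 were also among the 1000 strongest peaks of replicate 2, but only W06H8.17 and W03C9.9 were among those of replicate 1, and W06H8.17 alone was in both. Taken from replicate 2 alone, 13 members had a summit of its 1000 strongest peaks, against 2.38% of all genes. From replicate 1 alone it was 2 members, 1.54% of 130, against 1.78% of all genes, so the members' share of strong summits was not above the background in that replicate.

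**Figure D2:**
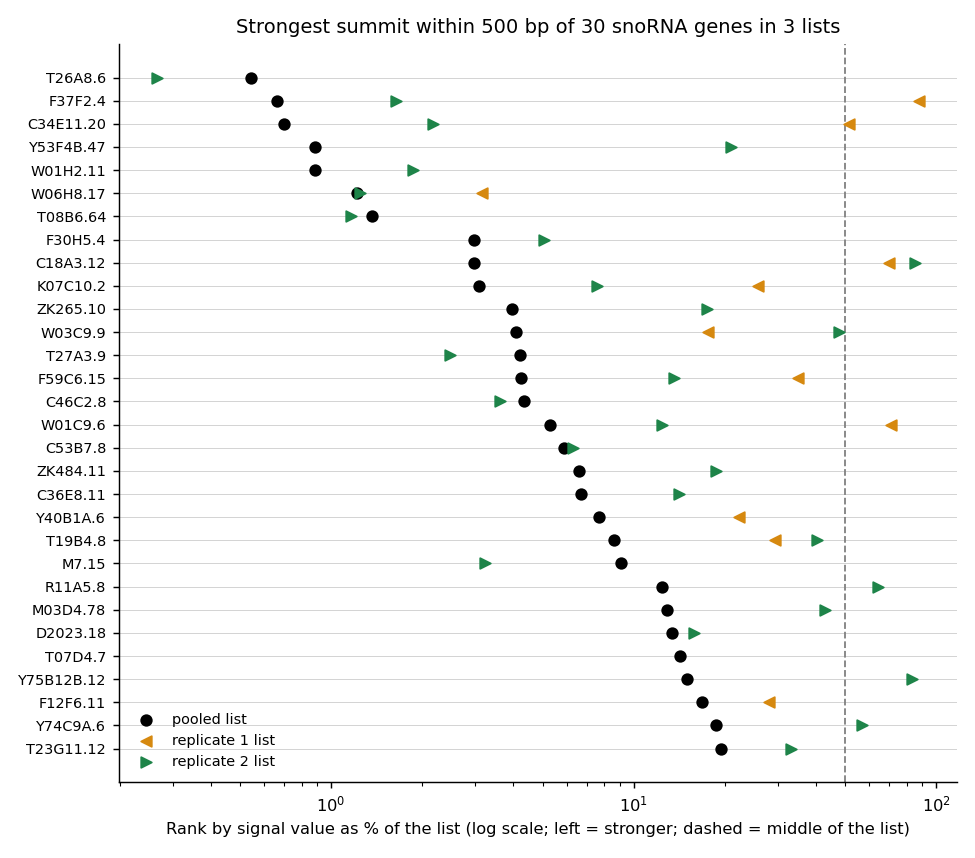
Rank of the strongest summit within 500 bp of 30 members, as a percent of each list (log axis, left is stronger), in the pooled list (circles), replicate 1 (left-pointing triangles) and replicate 2 (right-pointing triangles); a missing symbol means no summit in that list. Replicate 2 symbols fill most rows while replicate 1 symbols are absent from most, and W06H8.17 is near the strong end in all 3 lists.

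The strongest pooled summit near any member was at T26A8.6, on chromosome IV. It had a signal value of 14.2 (rank 85) at 121 bp into the gene, which is 126 bases long. Replicate 2 had 17.1 there (rank 23 of 8651) at 104 bp into the gene, and replicate 1 had no summit within 500 bp. The nearest protein-coding start, that of tmem-231, which encodes a transmembrane protein of cilia, was 1833 bp from the summit. T08B6.64, also on chromosome IV, is 85.7% identical in sequence to T26A8.6. It had 10.4 in the pooled list (rank 214) and 10.1 in replicate 2 (rank 101), both 61 bp upstream of the start, and again no summit in replicate 1. Of these 2 similar genes, both were therefore marked strongly, by the same replicate, and at different places relative to the start.

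W06H8.17 on chromosome V had strong summits in every relaxed list. Its signal values were 10.7 in the pooled list (rank 190), 5.54 in replicate 1 (rank 144) and 9.87 in replicate 2 (rank 108). The summits lay 470, 469 and 269 bp upstream of its start. The pooled one was closer to another noncoding RNA gene, W06H8.14, at 122 bp upstream of that start, so it cannot be assigned to the snoRNA gene from position alone. A second pooled summit of nearly the same signal value, 10.4 (rank 211), lay 265 bp upstream of W06H8.17, close to the summit of replicate 2.

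C34E11.20 on the X chromosome had a summit inside the gene in all 3 lists. The pooled value was 12.9 (rank 109) at 51 bp into the gene, with 2.65 in replicate 1 (rank 2348) and 8.33 in replicate 2 (rank 188). Those were near the middle of the replicate 1 list and near the strong end of the replicate 2 list. The start of the microRNA gene mir-239a was the nearest other start, with the summit 279 bp upstream of it. The printed upstream stretch of C34E11.20 holds TATAAA, the word of a TATA box.

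Other strong members lay near starts of other genes or far from their own. Y53F4B.47 on chromosome II had 12.0 in the pooled list (rank 138) at 92 bp upstream, none in replicate 1 and 3.91 in replicate 2 (rank 1808). That summit was also 129 bp upstream of cmtr-1, which encodes an mRNA cap methyltransferase. W01H2.11 on the X chromosome had 12.0 (rank 139) at 308 bp upstream, none in replicate 1 and 8.83 in replicate 2 (rank 161). F37F2.4 on chromosome I had 13.1 (rank 104) at 259 bp upstream, 2.13 in replicate 1 (rank 4009) and 9.14 in replicate 2 (rank 142), with the summit 304 bp upstream of the protein-coding gene F37F2.2. The signal value of F37F2.4 in replicate 1 was thus among the weakest of that list.

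The remaining members of the 1000 strongest had pooled values between 6.26 and 7.97. F30H5.4 had 7.97 at 6 bp into the gene and 6.18 in replicate 2 (rank 438), with none in replicate 1. C18A3.12 also had 7.97, at 49 bp upstream, but only 2.34 in replicate 1 and 2.21 in replicate 2, both in the weaker part of those lists. The pooled rank of C18A3.12 was therefore matched by neither replicate. K07C10.2 had 7.90 at 31 bp into the gene, with 3.26 in replicate 1 and 5.37 in replicate 2. W03C9.9 had 7.16 at 72 bp upstream, with 3.63 in replicate 1 (rank 803) and 2.91 in replicate 2 (rank 4113). By rank, W03C9.9 thus stood higher in the replicate 1 list than in the replicate 2 list.

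T27A3.9 had 7.08 at 24 bp upstream and 7.96 in replicate 2 (rank 213). C46C2.8 had 7.01 and C53B7.8 had 6.26 in the pooled list, and in replicate 2 they had 7.01 (rank 312) and 5.71 (rank 544). None of these 3 had a summit in replicate 1. ZK265.10 had 7.25 at 52 bp upstream, W01C9.6 had 6.51 at 144 bp upstream, and F59C6.15 had 7.07 at 257 bp downstream of its start, beyond the end of the gene. That summit was 57 bp downstream of the start of another noncoding RNA gene, F59C6.19, and so was nearer to it than to the snoRNA gene. The last members inside rank 1000 and the first outside it were close in value. C53B7.8 (rank 924), W01C9.6 (rank 826) and C46C2.8 (rank 682) were inside, and ZK484.11 with 6.04 (rank 1034), C36E8.11 with 6.02 (rank 1046) and Y40B1A.6 with 5.73 (rank 1206) were outside. The summit of C36E8.11 lay 62 bp upstream of that gene and 259 bp upstream of tif-1A, named after an initiation factor of RNA polymerase I.

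From the next members down to the 30th in order of pooled signal, values fell between 5.52 and 4.26. T19B4.8, M7.15, R11A5.8, M03D4.78, D2023.18, T07D4.7, Y75B12B.12, F12F6.11, Y74C9A.6 and T23G11.12 made up this stretch. M7.15 stood out in replicate 2, with 7.34 (rank 278) at 200 bp upstream, against 5.42 in the pooled list. T07D4.7 had 4.72 in the pooled list and no summit in either replicate. Of all 50 members with a pooled summit, 33 had one in replicate 2, 15 in replicate 1, 11 in both and 13 in neither.

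The strongest pooled summits just beyond the 500 bp window, up to 700 bp, were at 3 members. ZK20.9 had a summit of 7.73 (rank 520) at 657 bp downstream of its start, M7.15 one of 6.52 (rank 822) at 636 bp and C17H12.36 one of 3.94 (rank 3803) at 517 bp. M7.15 also had its weaker one inside the window, while ZK20.9 and C17H12.36 had no pooled summit there.

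By chromosome, 18 of 30 members on chromosome I had a pooled summit, and so did 9 of 28 on II, 3 of 10 on III, 8 of 23 on IV, 5 of 16 on V and 7 of 23 on X. The 17 strongest were spread as 4, 5, 1, 3, 1 and 3 over the same chromosomes. Every chromosome thus held at least 1 member with a strong summit. The share of all genes with a summit on each chromosome was not computed, so these counts do not set the members apart.

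The share of summits upstream was near that of protein-coding genes. Within 100 bp of the start lay a larger share than for all genes or nested snoRNA genes, though not than for tRNA or snRNA genes. Of the 50 strongest pooled summits per member, 31 (62.0%) lay upstream and 19 at or downstream of the start, against 53.9% upstream for all genes and 59.2% for protein-coding genes. The upstream share was 46.7% for nested snoRNA genes, 52.5% for tRNA genes and 40.5% for snRNA genes. The median was 47 bp upstream, against 28 bp upstream for all genes and 76 bp for protein-coding genes. Within 100 bp of the start were 23 (46.0%), of which 16 were upstream. Those 16 are 32.0% of the 50, against 16.8% of nested snoRNA genes and 13.3% of all genes with a pooled summit, and against 30.4% of tRNA genes. Among the 17 members of the 1000 strongest, 11 (64.7%) had the summit within 100 bp, 8 of them upstream. Nested snoRNA genes had 32 of 107 (29.9%) within 100 bp and a median of 33 bp downstream. Over all genes with a pooled summit 25.8% were within 100 bp, and for tRNA and snRNA genes it was 51.0% and 51.4%. These shares are descriptions, since neighbouring positions within a peak width are not resolved.

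**Figure D3:**
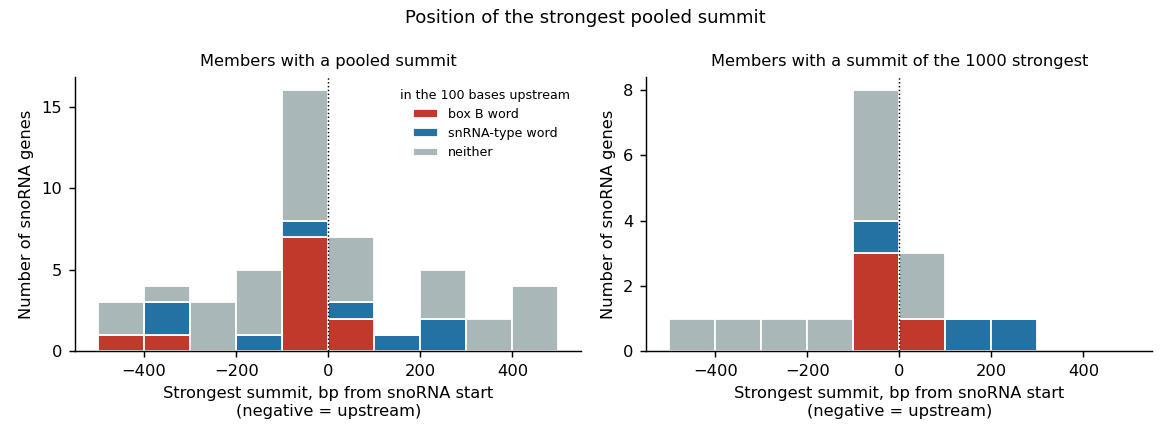
Distance of each member's strongest pooled summit from the snoRNA start (bp, negative is upstream, bins of 100 bp) for all 50 members with a summit (left) and the 17 with a summit of the 1000 strongest (right); colours give the word found in the 100 bases upstream. The bin just upstream of the start is the tallest in both panels, with 16 and 8 members.

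Starts of other genes were near some of these summits. A start of any other gene lay within 500 bp of the start of 47 of 130 members, of 20 of the 50 with a pooled summit and of 7 of the 17 strongest. The summits of T27A3.9 and K07C10.2 lay 42 bp and 56 bp downstream of the starts of the noncoding RNA genes T27A3.12 and K07C10.6. A protein-coding start lay within 500 bp of the start of 22 of 130 members, of 9 of the 50 with a pooled summit and of 1 of the 17 strongest, Y53F4B.47. Measured from the summit, 14 of the 50 and 3 of the 17 were within 500 bp of a protein-coding start. Without the 22 members, a pooled summit was found for 41 of 108 (38.0%) and a summit of the 1000 strongest for 16 of 108 (14.8%), so the shares hardly moved. A tRNA, snRNA or rRNA start lay within 500 bp of 3 members, M163.14, F56A12.6 and C16D9.10, none of which had a strong summit, and no member was that close to another snoRNA gene. The strongest summit was nearer to the member's start than to any other gene's in 42 of the 50 and in 15 of the 17.

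Members were also split by length, a split made after the data had been seen and with no test of the difference. Of 32 members of up to 100 bases, 19 had a pooled summit (59.4%, 40.6 to 76.3) and 9 one of the 1000 strongest. Of 98 longer members it was 31 (31.6%, 22.6 to 41.8) and 8, and the intervals of the first pair of shares overlap. The summit was within 100 bp of the start in 14 of the 19 short members (73.7%) and 9 of the 31 long ones (29.0%).

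Among upstream words, GTTCNANNC stood in the 100 bases before the start, on the gene's strand, in 15 members (11.5%). It was found in 8.33% of nested snoRNA genes and 1.56% of all genes, and on either strand in 13.1% of members and 2.86% of all genes. The word lies inside 92.6% of tRNA genes in this annotation (587 of 634), where box B is known to lie, and upstream of 0.789% of them. In members it lay inside the gene in 5. Where it stood upstream of a member, its first base was always 11 to 27 bases before the start, with a median of 13. Of 459 genes other than snoRNA genes with the word in the same 100 bases, 76 (16.6%) had it in that band, which was read off the members. The word has several open positions and a match is no evidence of a working promoter.

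The 15 members with that word were short, with a median of 74 bases, and 14 of them had a box C, box D or ACA word at the searched places, against 21 of 98 members with neither this word nor TGTCGG. A run of at least 4 T within 20 bases after the end was found in 11 of the 15, against 38.5% of all members, 36.9% of all genes and 96.8% of tRNA genes. A pooled summit lay near 11 of the 15 (73.3%, 44.9 to 92.2), and 4 of them were among the 1000 strongest, F30H5.4, W03C9.9, T27A3.9 and C53B7.8. The summit was within 100 bp of the start in 9 of the 11, with a median of 45 bp upstream, and within 50 bp of the word's centre in 8. Since the word stood just before the start, closeness to the word and to the start are not separate results. Of the 15 members, 8 had a summit in replicate 2, 3 in replicate 1 and 6 in neither.

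The printed W03C9.9, C53B7.8, Y75B12B.12 and F12F6.11 show the arrangement: box B word, snoRNA gene with CTGA at its end, and T run. Their pooled signal values were 7.16, 6.26, 4.63 and 4.49, with summits 72, 58 and 45 bp upstream and, for F12F6.11, 46 bp into the gene. The last of these had a replicate 1 summit of 3.16 at 340 bp downstream of the start and none in replicate 2. Nested snoRNA genes with the word had a pooled summit in 13 of 18 cases (72.2%), but only 5 of the 13 (38.5%) within 100 bp of the start. Genes other than snoRNA and tRNA genes had one in 18.1% of 454 cases with the word and in 18.9% without it. Outside these classes, the word anywhere in the searched upstream stretch thus did not go with a higher share. Most of those 454 cases had the word outside the band in which it stood before members. Whether the word inside that band went with a summit outside these classes was not tested.

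TGTCGG, which stood upstream of 42 of 129 snRNA genes (32.6%), was found upstream of 17 members (13.1%), against 6.94% of nested snoRNA genes and 1.24% of all genes. On either strand it was in 13.8% of members and 2.24% of all genes. In 14 of the 17 its first base was 40 to 60 bases before the start, as in 39 of the 42 snRNA genes, 13 of 15 nested snoRNA genes and 80 of 317 other genes (25.2%). No member had both this word and GTTCNANNC. These 17 members were longer, with a median of 154 bases, and none had the ACA word.

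A pooled summit lay near 8 of the 17 members with TGTCGG (47.1%, 23.0 to 72.2), and 3 were among the 1000 strongest, T26A8.6, T08B6.64 and F59C6.15, the last by the summit nearer to F59C6.19. Only 2 of the 8 summits were within 100 bp of the start, against 9 of 11 at members with the box B word. Nested snoRNA genes did not show that contrast, with 5 of 12 for TGTCGG and 5 of 13 for the box B word. Members with neither word had a summit in 31 of 98 cases (31.6%, 22.6 to 41.8), 10 of them among the 1000 strongest. The interval of the members with the box B word lay above that of the members with neither word, and the interval of those with TGTCGG overlapped both. These differences were not tested, because the words were chosen after the values had been seen. Members with the box B word were also shorter than those with neither word (medians of 74 and 144 bases). Members of up to 100 bases had a summit more often than longer ones (59.4% and 31.6%), so word and length were not separated.

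**Figure D4:**
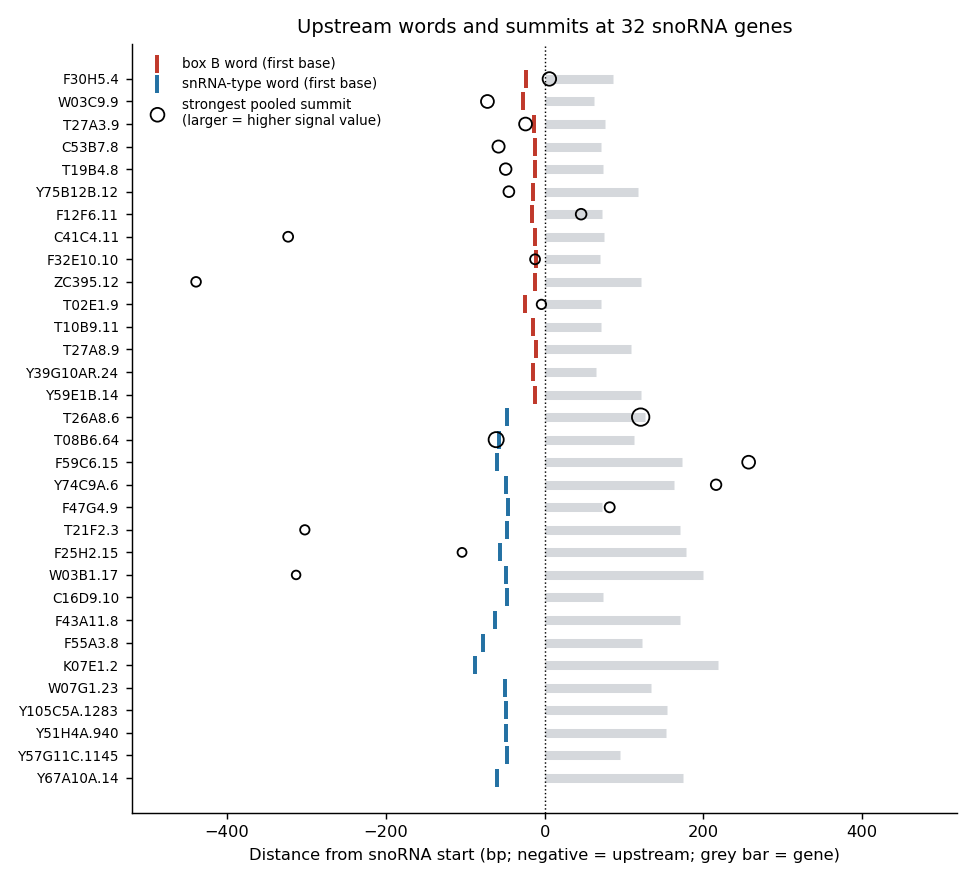
The 32 members with a box B word (red ticks) or the word common before snRNA genes (blue ticks) in the 100 bases upstream, with their strongest pooled summit (circles, larger for a higher signal value) and gene (grey bars), by distance from the start in bp. Red ticks fall 11 to 27 bases before the start and most circles in those rows lie close to them and to the start. Circles in the rows with blue ticks are more scattered.

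The other words searched upstream gave shares close to or below those of all genes, except another box B word. TATAAA stood upstream of 13 members and 10.4% of all genes, and on either strand in 16.2% of members and 16.2% of all genes. GGTTCGA, a shorter word without open positions that can overlap GTTCNANNC, was upstream of 4.62% of members and 0.282% of all genes (either strand 5.38% and 0.583%). TATATA, the same on both strands, was upstream of 4.62% of members and 5.07% of all genes. TAATTA, the core that many homeodomain proteins bind and the same on both strands, was upstream of 3 members (2.31%), K07C10.2, R11A5.8 and R166.10, against 5.50% of all genes. Only K07C10.2 of these 3 had a summit of the 1000 strongest. Its absence from the other stretches says only that these letters are not in the 100 bases upstream. Within the genes, the box C word was in the first 20 bases of 8 members (6.15%, against 0.700% of all genes). The box D word was in the last 20 of 30 members (23.1%, against 5.70% of all genes). ACA was in the last 6 of 16 members (12.3%, against 29.6% of nested snoRNA genes and 5.58% of all genes). At least 1 of the 3 was found in 43 of the 130 members, so for most members these exact words do not bear out a class.

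Some members are near copies of each other, and reads from copies may not be told apart, which could affect their values. Identity was measured over the genes alone and not over the stretches upstream, where some of these summits lay. At least 80% identity over the gene was found for 10 pairs among 12 members, of which 6 had a pooled summit and 5 one of the 1000 strongest. F59C6.15, Y67A10A.14, F25H2.15 and F43A11.8 form a family with 84.9% to 97.1% identity, and all 4 have TGTCGG upstream. Their values differed: F59C6.15 had 7.07 in the pooled list, at the summit nearer to F59C6.19, F25H2.15 had 2.77 (rank 9028), and Y67A10A.14 and F43A11.8 had no pooled summit. C46C2.8 and C53B7.8, 94.5% identical, had like pooled values and summits 51 and 58 bp upstream. Only C53B7.8 holds the exact box B word. The other 2 pairs, 95.5% and 94.7% identical, had no pooled summit at any of their members. The handling of reads from repeated sequence was not given in these sources, and its part in these values was not tested.

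Protein-coding genes whose products build snoRNA particles or transcribe small RNA genes were looked up as a list of 28, of which 26 matched the annotation. A pooled summit lay within 500 bp of the start of 11 (42.3%), against 19.0% of protein-coding genes, and 2 were among the 1000 strongest, against 2.21% of protein-coding genes. The list was made by hand and its members were not tested as a set. ruvb-2, a helicase that helps assemble box C/D particles, had 11.5 in the pooled list (rank 157) at 106 bp upstream, with 5.92 in replicate 1 and 6.42 in replicate 2. nol-56, a core protein of box C/D particles, had 6.29 (rank 914) at 154 bp upstream, none in replicate 1 and 3.07 in replicate 2. fib-1, the methyltransferase of the same particles, had 5.63 (rank 1272), and snpc-4, a subunit of the complex that starts snRNA transcription, had 6.07 (rank 1018), both just outside the 1000 strongest. Weaker pooled summits lay near dao-5 (5.25), snpc-3.4 (4.64), nol-58 (4.29), rpc-2 (4.20), nola-3 (3.58), brf-1 (3.24) and xrn-2 (2.30). No pooled summit was found at dkc-1, the pseudouridine synthase of H/ACA particles, at its partner garr-1, at tbp-1, the TATA-binding protein, or at rpc-1, a subunit of RNA polymerase III. The snpc-1.1, snpc-1.2, snpc-1.3, snpc-3.1 and snpc-3.2 genes had none either. The same held for ruvb-1, snu-13, rpc-11, nol-6, nol-10 and rrp-1, the rest of the matched genes.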

How the data were processed

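The assay was ChIP-seq of tagged CEH-82 in 2 biological replicates of 1 group, so no comparison between conditions exists. The authors deposited peak lists in narrowPeak form, and their signal values were used as a score, written by the authors' peak caller. The peak caller, aligner, their versions and thresholds were not given in the sources used here, and nothing was reprocessed from reads. The 4 ce11 lists were used and the 4 ce10 lists were not. The relaxed lists were made as input for an irreproducible discovery rate procedure, per the deposited descriptions, and hold background.

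A summit was the peak start plus its offset, written 1-based, and its distance was signed by the snoRNA strand. For each gene the summit of highest signal value within 500 bp of the annotated start was taken. The background of every count was all 31563 genes of Ensembl release 115 without 15363 piRNA genes. Intervals are exact Clopper-Pearson intervals at 95%, and the limit of a count of 0 is 3 counts of the total. Both cover counting error only. Depth is unknown. Words were searched as exact matches on the gene's strand in WBcel235 (RefSeq sequence), with either strand as a second count. Identity came from global alignment (Biopython 1.88). Python 3.11.15, pandas 2.3.3 and scipy 1.17.1 were used, and the summit search was tested on simulated data.

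The members, the gene list, the words and the splits were chosen with earlier results of these data known. Named members were the 30 with the strongest pooled summits, the 3 with the strongest summits between 500 and 700 bp, and those just inside and outside rank 1000. Other members were named after their values were seen. Alternatives changed the window, the overlap rule, the nesting rule, neighbours, list cuts and replicates.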

Additional observations from a re-analysis of the deposited data

How the results depend on the processing

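Of 42 alternatives over 4 counts, 29 stayed within 1.5 times the value in the report and 13 did not. The 50 members with a pooled summit became 32 with a window of 250 bp (background 11.8% of genes), and ranged from 20 to 36 with 1 replicate's list alone. The 17 members with a summit of the 1000 strongest became 26 of 163 when only a host on the same strand counted as nesting, 7 with the 300 strongest peaks (background 0.979%) and 29 with the 3000 strongest (background 5.92%), and ranged from 2 to 13 with 1 replicate alone. The 0 members with a thresholded summit became 1 with a window of 1000 bp and 1 with nesting on the same strand, and ranged from 0 to 1 when 1 replicate's list was cut to the same number of peaks. The 11 members with summits in both replicates became 6 with 250 bp, 17 with 1000 bp, 7 by peak overlap with the gene body and 1 with the 1000 strongest peaks of each replicate. The share of all genes was not computed for these settings, so these counts do not set the members apart. It was also not computed for the thresholded list with the wider window or the cut replicate lists. Counting a summit only where the member's start was the nearest of all gene starts gave 44, 15, 0 and 8. That alternative was chosen after seeing the data, and its share of all genes was not computed. No paired analysis was possible because the 2 samples are replicates of 1 group. The counts of strong summits rest on replicate 2, and the cause of that difference was not tested. Peak widths limit positions, and the unknown depth and the control that was not analysed limit what a missing summit means.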

Other observations

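Of 18 nested snoRNA genes with the box B word, which the report uses only for comparison, 11 had its first base 11 to 27 bases before the start, the band that held all 15 members, and 7 had it elsewhere. A summit lay near 13 of the 18, and 6 of the 18 had a summit of the 1000 strongest pooled peaks. Of 15 nested genes with TGTCGG, 12 had a pooled summit and 6 one of the 1000 strongest. snRNA genes with TGTCGG had a pooled summit in 17 of 42 cases (40.5%), and those without it in 23.0%. These values come from the same lists and words as those of the members and are not independent of them.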
